A study of Homo sapiens with 6 samples.

Results

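The genes described here are 9 genes known as targets that the PAX3-FOXO1 fusion protein activates in fusion-positive rhabdomyosarcoma (FP-RMS), namely ALK, CNR1, CDH3, NELL1, TFAP2B, OLIG2, NOS1, PIPOX and RASSF4. They were found by symbol in a table of normalized counts, where all 9 were among 35268 named rows. All 9 also belonged to the 13930 genes tested, which averaged 10 normalized counts or more across 6 libraries.

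The RNA came from Rh30, an established cell line of patient origin that carries the fusion. Cells received 1 µM YK-4-279, a small molecule directed at ETS family factors and used as a racemic mixture in DMSO, or the DMSO vehicle alone, over 24 hours, and each group has 3 libraries. The labels number the replicates but do not say that they came from separate cultures, so that p-values measure the spread between these samples, which may be technical. All values describe 1 cell line at 1 dose and 1 time. The comparison asks how far the expression of these fusion targets moves when the drug is present.

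PAX3-FOXO1 joins the DNA-binding domains of PAX3, a paired box and homeodomain factor of the embryonic muscle lineage, to the transactivation domain of FOXO1. The fusion protein acts largely through enhancers, many of them far from promoters, and holds tumour cells in a proliferating, poorly differentiated myogenic state. Its targets are of many kinds, among them receptors, secreted proteins, transcription factors and enzymes, and the proteins of TFAP2B and CDH3 serve as tissue markers of fusion-positive tumours.

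Reads on named genes numbered 16724650, 20771226 and 24677433 for DMSO replicates 1 to 3, and those for YK-4-279 numbered 23230675, 18752655 and 19876724. DMSO replicate 1 stood apart from the rest. Its mean correlation with the other libraries across the genes tested was 0.989, against 0.992 to 0.993 elsewhere, and 6.05% of its reads lay on the 13 protein-coding mitochondrial genes, against 4.74% to 5.03% in the others. Results are therefore given for all libraries and, where a call or an estimate of a gene named here moved clearly, without this library. After the authors' scaling the normalized counts still summed to 21087931, 20755611 and 20604256 in the DMSO libraries and to 19905845, 20377613 and 19886757 in those with drug, so that values scaled by total reads run slightly higher with drug than normalized counts do.

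The cells matched their label as muscle-lineage tumour cells. Of 10 muscle lineage markers 8 were tested, the most abundant being MYOD1, a master regulator of the lineage, with a mean of 36993 normalized counts, while MYF5 and MYF6 were near 0. The most abundant immune, endothelial, epithelial and neural markers were CD14, TIE1, EPCAM and RBFOX3, with means of 13.3, 55.8, 64.6 and 38.7 normalized counts. PTPRC, CD68, KRT5 and SNAP25, which define such cells, were at or near 0.

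Levels between genes were compared per length, as RPKM, with exon length and with reads on named genes as the total. In DMSO the order was ALK (26.4 ± 1.49 RPKM, SD, n = 3), PIPOX (23.4 ± 0.851), NOS1 (23.0 ± 0.806), NELL1 (19.4 ± 0.543), OLIG2 (8.68 ± 0.641), TFAP2B (8.28 ± 0.249), RASSF4 (4.37 ± 0.154), CNR1 (2.01 ± 0.133) and CDH3 (1.82 ± 0.181). By this length the genes fell into a group of 4 at higher levels, a pair in the middle, RASSF4 below them and a pair at low level. The length counts all annotated exons, 9481 bases for RASSF4 and 3814 for PIPOX, where their longest transcripts have 4350 and 2169. For OLIG2 both are 3262 bases. The order and these groups therefore depend on the length chosen, and other lengths were not tested. Of all genes tested, 89.5% had a lower RPKM than ALK and 29.99% had a lower RPKM than CDH3.

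Within each library the ratio of neighbours in this order was compared with its spread. Exon lengths are the same in every library. The spread thus covers differences between libraries and not the choice of length, on which the order also depends. In DMSO, ALK lay above PIPOX by a mean log2 ratio of 0.18 (SD 0.03) and NOS1 above NELL1 by 0.25 (SD 0.08), each in 3 of 3 libraries and beyond the spread. PIPOX and NOS1 did not differ beyond it, with a mean log2 ratio of 0.02 (SD 0.07) and PIPOX higher in 1 of 3 libraries. OLIG2 lay above TFAP2B by a mean log2 ratio of 0.07 (SD 0.06) and CNR1 above CDH3 by 0.15 (SD 0.12), each in 3 of 3 libraries, with ratios close to the SD. NELL1 lay above OLIG2 by a mean log2 ratio of 1.16 (SD 0.08), far outside it. With drug the order of the means was the same apart from OLIG2 and TFAP2B, since TFAP2B lay above OLIG2 in all 3 libraries (mean log2 ratio of OLIG2 to TFAP2B -0.17, SD 0.06). PIPOX lay above NOS1 in all 3 (0.22, SD 0.09), while ALK and PIPOX did not differ beyond the spread (0.0046, SD 0.10).

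**Figure D1:**
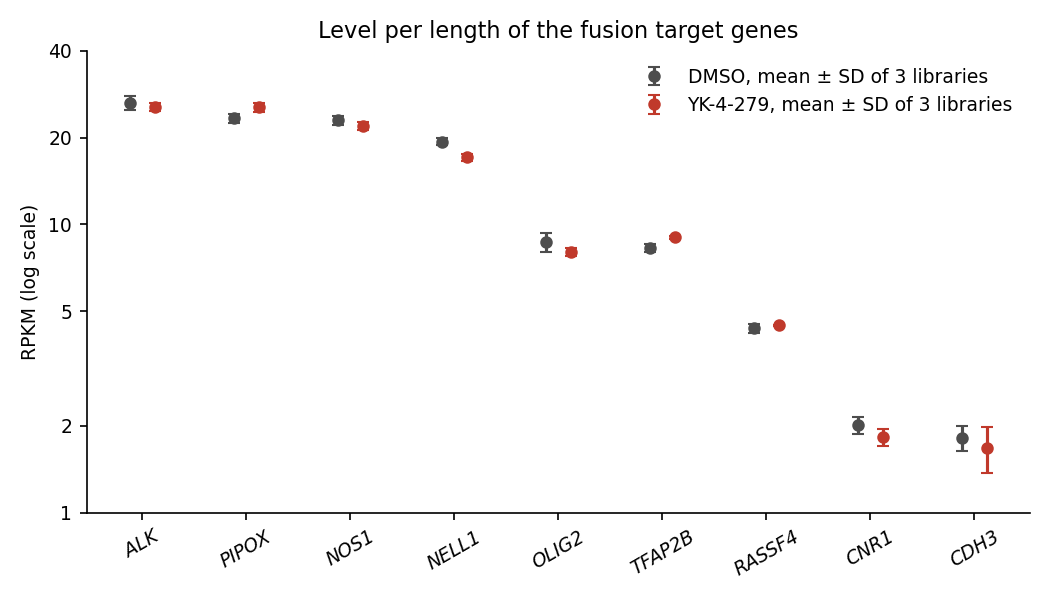
Level of each gene as RPKM over all annotated exons, on a log axis. Points show the mean and bars the SD of the 3 DMSO libraries (grey) and the 3 YK-4-279 libraries (red). In both groups ALK, PIPOX, NOS1 and NELL1 lay highest and CNR1 and CDH3 lowest, and the step between NELL1 and OLIG2 was larger than any difference between the groups.

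Promoter windows of 300 bases, 250 before and 50 after a start, were found in the RefSeq table on GRCh38.p14 for 6 of the 9 genes, in 12 entries, 6 of them for CNR1. CDH3, OLIG2 and NELL1 had no entry. The windows of ALK, NOS1, TFAP2B and PIPOX are printed, since the estimates of ALK and NOS1 lay below 0 and those of TFAP2B and PIPOX above 0, and since these letters show how differently the starts of fusion targets are built. For ALK, which has 2 windows, the one at the start of its annotated span is printed. Each is written 5′ to 3′ on the strand of its gene, in lower case, with capitals for matches on either strand to the homeodomain core ATTA, the paired core GTCACG, the ETS core CCGGAA or the E-box CAGCTG. Among 34943 promoter windows of this length, 50.3% held ATTA, 8.99% held GTCACG, 17.2% held CCGGAA and 17.9% held CAGCTG. The ALK window is chr2:29921537-29921836 on the minus strand, the NOS1 window is chr12:117309361-117309660 on the minus strand, the TFAP2B window is chr6:50818621-50818920 on the plus strand, and the PIPOX window is chr17:29042891-29043190 on the plus strand.
ALK: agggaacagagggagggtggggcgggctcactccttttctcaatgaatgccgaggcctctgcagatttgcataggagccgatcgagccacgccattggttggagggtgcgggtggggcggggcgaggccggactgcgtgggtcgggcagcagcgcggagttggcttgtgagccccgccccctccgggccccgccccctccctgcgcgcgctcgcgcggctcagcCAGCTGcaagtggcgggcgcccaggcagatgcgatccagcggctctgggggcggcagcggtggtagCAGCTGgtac
NOS1: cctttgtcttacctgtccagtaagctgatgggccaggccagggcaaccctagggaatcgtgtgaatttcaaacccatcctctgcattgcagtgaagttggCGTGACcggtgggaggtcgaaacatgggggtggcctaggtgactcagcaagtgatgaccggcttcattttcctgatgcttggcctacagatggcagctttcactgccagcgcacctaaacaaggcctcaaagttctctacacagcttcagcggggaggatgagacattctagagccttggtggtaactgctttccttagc
TFAP2B: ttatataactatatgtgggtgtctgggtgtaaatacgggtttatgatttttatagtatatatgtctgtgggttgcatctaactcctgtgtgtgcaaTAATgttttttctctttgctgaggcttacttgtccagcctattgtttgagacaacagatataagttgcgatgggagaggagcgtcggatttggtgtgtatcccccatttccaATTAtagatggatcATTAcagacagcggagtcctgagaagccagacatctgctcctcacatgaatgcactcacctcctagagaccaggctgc
PIPOX: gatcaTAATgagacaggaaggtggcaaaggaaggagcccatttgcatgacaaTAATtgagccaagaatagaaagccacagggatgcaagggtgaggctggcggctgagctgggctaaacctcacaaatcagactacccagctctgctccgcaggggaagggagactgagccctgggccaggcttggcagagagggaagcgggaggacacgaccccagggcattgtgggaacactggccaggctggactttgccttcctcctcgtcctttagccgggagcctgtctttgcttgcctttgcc
The ALK window, with a GC content of 71.0%, held 2 E-box matches and no other match, while a second ALK window, chr2:29223774-29224073, held 2 matches to the homeodomain core. The NOS1 window (53.3% GC), which lies inside the annotated gene span, held 1 match to the paired core. The TFAP2B window (43.0% GC) held 3 matches to the homeodomain core and the PIPOX window (57.3% GC), also inside the gene span, held 2. Each of the 6 CNR1 windows held between 1 and 6, so that this core was not confined to genes with estimates above 0. None of these 4 windows held the ETS core, which was found in the RASSF4 window, beside 1 E-box, and in 1 of the 6 CNR1 windows. A match describes letters in the window and is not a binding site, and a missing match says only that these letters are not in the window.

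Of the 9 genes, 7 had estimates below 0 and 2 above 0 with drug, and the median log2 fold change was -0.12, beside 52.0% of genes below 0 and a median of -0.01 over all genes tested. At a limma adjusted p under 0.05, 1 of the 9 genes, NELL1, was called, in the lower direction, where 2.15% of all genes tested were called lower, 1.26% higher and 3.41% in either direction. DESeq2 also called NELL1 alone, edgeR called 0 of the 9, and NELL1 and NOS1 had an unadjusted limma p under 0.05. Of all genes tested DESeq2 called 4.47%, edgeR 3.34%, and 18.7% had an unadjusted limma p under 0.05. No gene of the 9 was called higher by limma, edgeR or DESeq2. In NOS1, OLIG2 and NELL1, 3 of the 9 genes, every YK-4-279 library lay below every DMSO library, an arrangement that 15.1% of all genes tested had. In none did every drug library lie above, as in 10.9% of all genes tested. Differences were small, and a lower value can come from fewer cells that express a gene or from less RNA per cell, which cannot be told apart in bulk samples.

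**Figure D2:**
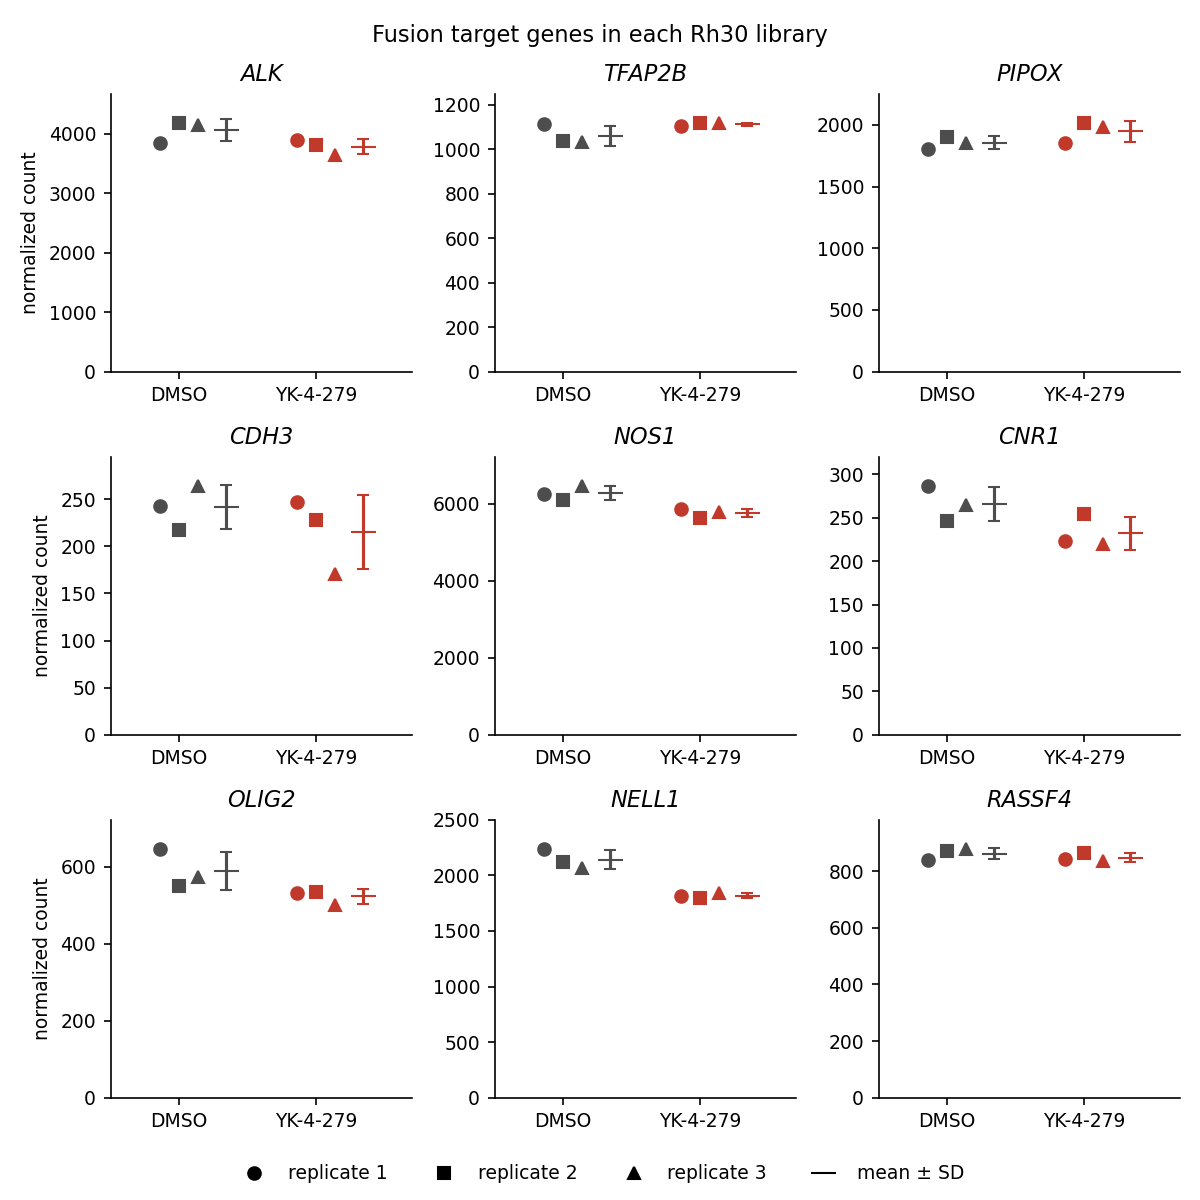
Normalized counts of the 9 genes in each library, with 1 panel per gene and an axis that starts at 0, symbols for replicates 1, 2 and 3 in DMSO (grey) and YK-4-279 (red), and the mean ± SD of the 3 libraries at the right of each group. The groups are apart in NOS1, OLIG2 and NELL1 and overlap in the other 6 panels.

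NELL1 encodes a secreted glycoprotein of the thrombospondin type that promotes bone formation and lies at chr11:20669551-21575686 (hg38, plus strand). DMSO replicates 1 to 3 had 2234, 2123 and 2066 normalized counts of NELL1, and the drug-treated replicates, in the same order, 1811, 1799.5 and 1842. The 3 drug-treated values all lay below the lowest DMSO value. Their spread, 1.21% of the mean, was below the 2.31% of read counting, and the DMSO spread of 4.003% was above its 2.17%. The mean fell from 2141 ± 85.7 to 1817 ± 22.0 normalized counts (SD, 3 libraries each), that is by 15.1%, with a log2 fold change of -0.24 (SE 0.06, 95% confidence interval -0.37 to -0.11, limma adjusted p = 0.0488). The adjusted p lay just under the threshold, and the absolute change was larger than in 78.5% of the genes tested. Without DMSO replicate 1, which held the highest NELL1 value, the log2 fold change was -0.20 (limma adjusted p = 0.00131). NELL1 lost its call without DMSO replicate 2 or 3 and without any 1 of the drug-treated replicates, where the adjusted p went up to 0.240. A processed pseudogene annotated inside NELL1 on the same strand shares 785 bases with its exons, 14.8% of their length. How reads on these bases were counted was not given in the sources used here.

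ALK is a receptor tyrosine kinase of the developing nervous system and lies at chr2:29192774-29921586 (minus strand). Its normalized counts were 3843, 4173 and 4151 in DMSO and 3890.2, 3809.8 and 3646 with drug. DMSO replicate 1 was the low DMSO value and overlapped the drug-treated libraries, whereas the other DMSO libraries lay above all of them. The log2 fold change was -0.10 (SE 0.06, limma adjusted p = 0.384), and the confidence interval ran from a change of -14.5% to one of 1.82%. Without DMSO replicate 1 it was -0.14 (limma adjusted p = 0.0186). CLIP4, on the opposite strand with a mean of 497 normalized counts, shares 135 bases with exons of ALK.

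CNR1, the cannabinoid receptor of neurons, lies at chr6:88139864-88166347 (minus strand). It had 286, 247 and 265 normalized counts in DMSO and 223, 254 and 220.1 with drug. The groups overlapped through drug-treated replicate 2, which lay above DMSO replicate 2. At these counts the spread between libraries, 7.42% of the mean in DMSO, was near the 6.16% that read counting alone gives. The log2 fold change was -0.19 (SE 0.11, limma adjusted p = 0.349), and the interval reached from -25.4% to 2.41%. The estimate was -0.14 without DMSO replicate 1, the library with the highest CNR1 value.

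CDH3, or P-cadherin, is a calcium-dependent adhesion protein and lies at chr16:68636189-68727468 (plus strand). Values were 243, 218 and 264 normalized counts in DMSO and 247, 228 and 171 with drug. The lower drug mean came from replicate 3 alone, since the other drug-treated libraries lay inside the DMSO range. The spread with drug, 18.3% of the mean, was wider than the 6.70% of read counting, and the log2 fold change of -0.18 (SE 0.14, limma adjusted p = 0.517) had an interval that held 0, from -28.0% to 8.47%. CDH3-AS1, on the opposite strand, shares 537 bases with exons of CDH3, 8.40% of their length.

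Between the transcription factors the estimates had opposite signs. TFAP2B, an AP-2 factor of neural crest and kidney development at chr6:50818723-50847619 (plus strand), had 1112, 1037 and 1034.5 normalized counts in DMSO and 1103, 1117 and 1117 with drug. The drug-treated libraries were nearly equal, and DMSO replicate 1 lay among them while the other DMSO libraries lay below. The log2 fold change was 0.07 (SE 0.07, limma adjusted p = 0.615) with all libraries and 0.10 (limma adjusted p = 0.233) without DMSO replicate 1.

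OLIG2, a basic helix-loop-helix factor of oligodendrocyte and motor neuron precursors at chr21:33025935-33029196 (plus strand), had 646, 551 and 573 normalized counts in DMSO and 533, 536 and 501 with drug. All drug-treated libraries lay below all DMSO libraries, and the highest value was that of DMSO replicate 1. The log2 fold change was -0.17 (SE 0.08, limma adjusted p = 0.302), and it was -0.10 (limma adjusted p = 0.402) without DMSO replicate 1.

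NOS1, the neuronal nitric oxide synthase, which is also bound to the muscle membrane, lies at chr12:117208142-117452170 (minus strand). It had 6268, 6091 and 6457 normalized counts in DMSO and 5865, 5638 and 5779.9 with drug. Every drug-treated value was below every DMSO value. The mean of 6272 ± 183 in DMSO stood against 5761 ± 115 with drug (SD, 3 libraries each), a log2 fold change of -0.12 (SE 0.05, limma adjusted p = 0.244). Without DMSO replicate 1 the estimate stayed at -0.12 and the limma adjusted p was 0.0341.

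PIPOX, a peroxisomal oxidase of pipecolic acid and sarcosine at chr17:28950513-29057216 (plus strand), had 1803, 1905 and 1857 normalized counts in DMSO and 1853, 2012.5 and 1980.0 with drug. Replicate 1 was the lowest of each group, and drug-treated replicate 1 lay inside the DMSO range while the other drug-treated libraries lay above it. The log2 fold change was 0.07 (SE 0.06, limma adjusted p = 0.579), and 0.05 without DMSO replicate 1. It was 0.01 after trends on GC content and length were removed and 0.12 when scaled by total reads. Exons of PIPOX share 170 bases with PHF12 on the opposite strand, which had a mean of 2936 normalized counts, and the strand setting of the counting was not given in the sources used here.

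RASSF4, a RAS association domain protein linked to Hippo kinases at chr10:44959407-44995891 (plus strand), had 838, 869 and 877 normalized counts in DMSO and 842, 865 and 835 with drug. These 6 values were interleaved, and their spread of 2.35% in DMSO was below the 3.41% of read counting. The log2 fold change was -0.02 (SE 0.07, limma adjusted p = 0.889), with an interval from -11.1% to 8.86%, and the absolute change exceeded that of 11.9% of the genes tested. The estimate without DMSO replicate 1 was -0.04. DEPP1, on the opposite strand, shares 695 bases with exons of RASSF4, at a mean of 58.0 normalized counts.

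**Figure D3:**
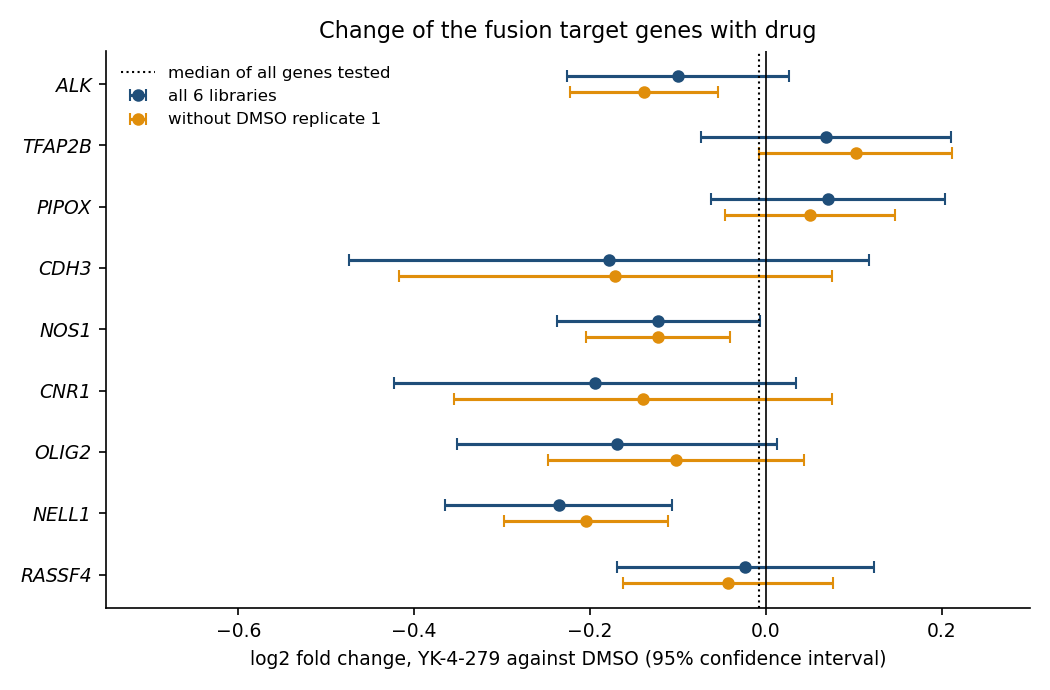
Log2 fold change of each gene, YK-4-279 against DMSO, from limma with 95% confidence intervals, with all 6 libraries (blue) and without DMSO replicate 1 (orange). The solid line marks 0 and the dotted line the median of all genes tested, -0.01. Only the intervals of NOS1 and NELL1 exclude 0 with all libraries, and those of ALK, NOS1 and NELL1 do so without DMSO replicate 1.

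Without DMSO replicate 1, limma called 3 of the 9 genes, ALK, NOS1 and NELL1, all lower, where 8.46% of all genes tested were called lower and 4.62% higher. This setting thus called more of all genes tested as well. Over the 9 genes, the median deviation from the DMSO mean on the log2 scale was 0.01, -0.03 and 0.0020 for DMSO replicates 1 to 3 and -0.06, -0.08 and -0.15 for the drug-treated replicates. Drug-treated replicate 3 was the lowest. The number of the 9 genes below their DMSO mean was 4, 6 and 4 for the DMSO replicates and 7, 6 and 7 for the drug-treated replicates.

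The scale of the libraries also bore on which groups were apart. In RPM, which divides by the total reads on named genes, every drug-treated library lay below every DMSO library only in NELL1 of the 9 genes, as in 9.09% of all genes tested, and every drug-treated library lay above in TFAP2B and PIPOX, as in 17.4% of all genes tested. TFAP2B had 52.7, 49.97 and 50.2 RPM in DMSO and 55.4, 54.8 and 56.1 with drug. PIPOX had 85.5, 91.8 and 90.1 in DMSO and 93.1, 98.8 and 99.6 with drug, and NELL1 had 106, 102 and 100.2 in DMSO and 91.0, 88.3 and 92.6 with drug. The groups of NELL1 were thus apart on both scales, whereas those of NOS1 and OLIG2 were apart only on the authors' scale and those of TFAP2B and PIPOX only on the other. Scaled by total reads and tested with limma, none of the 9 genes was called, and RASSF4 had a log2 fold change of 0.03, above 0.

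**Figure D4:**
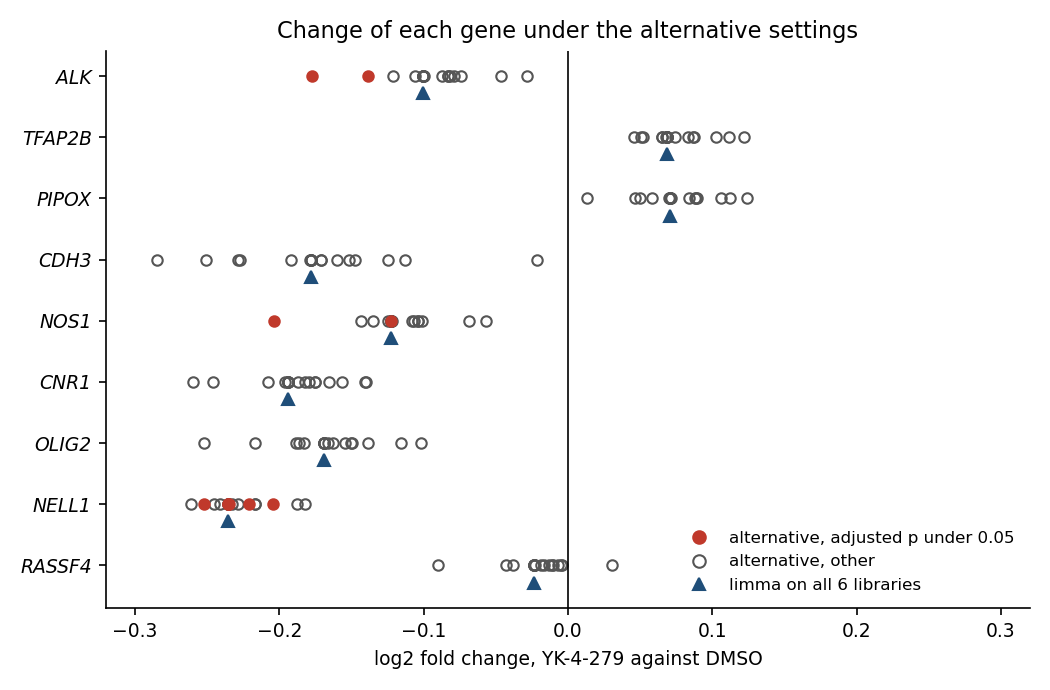
Log2 fold change of each gene, YK-4-279 against DMSO, under each of 18 alternative settings (circles, red where the adjusted p was under 0.05) and from limma on all 6 libraries (triangles). The estimates of each gene keep to 1 side of 0, apart from RASSF4, and NELL1 is red in 6 of its 18 settings, more than any other of the 9. The settings in which NELL1 is red called between 467 (of 10699) and 1913 (of 13705) of all genes.

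Across the 18 alternative settings, NELL1 lay between -0.26 and -0.18 and was called in 6. ALK lay between -0.18 and -0.03 and NOS1 between -0.20 and -0.06, each called in 2. These 2 were the removal of trends on GC content and length and the omission of DMSO replicate 1. They called 1913 of 13705 and 1823 of 13930 genes, against 475 of 13930 in the main setting. NELL1 was called in both, and also with pseudocounts of 0.5 and 10 and with DESeq2, which called 473, 491 and 623 of 13930 genes. It was called as well with a mean of at least 100, where 467 of 10699 genes were called. None of CNR1, CDH3, OLIG2, TFAP2B, PIPOX and RASSF4 was called in any of them. CDH3 had the widest range, from -0.28 to -0.02.

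Among the 9 genes themselves, profiles over the 6 libraries were compared by the root mean square difference of log2 values, each centred on its own mean. The closest pairs were ALK with RASSF4 (0.05), ALK with NOS1 (0.06) and CNR1 with OLIG2 (0.06), and the most distant was PIPOX with CDH3 (0.24). Among 10699 genes with a mean of at least 100, the gene nearest to NELL1 by this measure was TBX18 (0.01), followed by FAM83D (0.01), with log2 fold changes of -0.25 and -0.24. Nearest to ALK were DCAF15 and FGFRL1, to NOS1 GGA2 and MSI2, to OLIG2 DZIP1 and SLC25A17, and to CNR1 TPP1 and LRRC28, at distances between 0.0065 and 0.03. TFAP2B was nearest to REST and PALM2AKAP2, PIPOX to EDC3 and FRA10AC1, and RASSF4 to C19orf12 and MXRA7, at distances between 0.0028 and 0.01. The profile of CDH3 had the least close counterparts, SEMA3B and SS18L2 at 0.07 and 0.08. Since so many genes were compared over 6 libraries, small distances are common.

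The nearest protein-coding genes on either side of each target that do not overlap it, 18 in all, were next examined, and 10 of them were tested. None was called by limma, edgeR or DESeq2, beside 3.41%, 3.34% and 4.47% of all genes tested, and none had an unadjusted limma p under 0.05, as 18.7% of all genes tested had. Their median log2 fold change was -0.17, with 7 below 0 and 3 above 0. RNGTT, the mRNA capping enzyme beside CNR1, was the only neighbour with all drug-treated libraries below all DMSO libraries, an arrangement of 15.1% of all genes tested (log2 fold change -0.15, limma adjusted p = 0.286). Their median without DMSO replicate 1 was -0.09, RNGTT had -0.09, and limma called YPEL5 alone, higher (0.21, limma adjusted p = 0.00674), as it called 4.62% of all genes tested. Several neighbours were silent or weakly expressed. SLC6A5, 10.3 kb from NELL1, had a DMSO mean of 7.24 normalized counts, and ANO5 on its other side had 81.6. OLIG1, a relative of OLIG2 located 40.9 kb away, had 25.3, and KSR2, 0.842 kb from NOS1, had 5.18. CDH1, or E-cadherin, 9.82 kb from CDH3, was at 0 in every DMSO library, and PCARE, TFAP2D, SPACA1 and TMEM72 were likewise at 0 in DMSO. Well-expressed neighbours were MYO18A beside PIPOX, FBXO21 beside NOS1, RNGTT beside CNR1 and YPEL5 beside ALK, with DMSO means of 5831, 1729, 1165 and 961 normalized counts for MYO18A, FBXO21, RNGTT and YPEL5.

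Of 28 other genes described as activated by the fusion, all tested, 17 lay below 0 and 11 above 0, with a median log2 fold change of -0.02. All drug-treated libraries lay below all DMSO libraries in 7 (15.1% of all genes tested) and above in 2 (10.9% of all genes tested). IGF2, a growth factor, was the only gene of the list that limma called with all libraries on the authors' scale, without correction for GC content and length. With trends on GC content and length removed, only FGF8, IL4R, PODXL, ETS1, MEST and LOXL2 of the list were read. Limma then called FGF8, IL4R and PODXL, all lower, as it called 1434 of 13705 genes. ETS1, MEST and LOXL2 were not called, and the other genes of the list were not read in that setting. The tools edgeR and DESeq2 called 1 gene each, and limma, edgeR and DESeq2 called 3.41%, 3.34% and 4.47% of all genes tested. In the list 9 had an unadjusted limma p under 0.05, beside 18.7% of all genes tested. IGF2 fell from 17896 ± 833 to 12711 ± 627 normalized counts (SD, 3 libraries each), a log2 fold change of -0.49 (SE 0.06, limma adjusted p = 0.00118). FGF8, a secreted growth factor, had a log2 fold change of -0.24 (limma adjusted p = 0.0778) and PDGFRA, a receptor tyrosine kinase, 0.27 (limma adjusted p = 0.250). MYOD1, the most abundant, stood at -0.01 (-0.06 without DMSO replicate 1). Without DMSO replicate 1, limma called 8 of the 28 lower and 3 higher, with a median of -0.05, where 8.46% of all genes tested were called lower and 4.62% higher. The 8 were IGF2, FGF8, FGFR4, KCNN3, GREM1, SKP2, IL4R and PODXL, and the 3 were CXCR4, PDGFRA and IGF1R. PDGFRA then had a log2 fold change of 0.42 (limma adjusted p = 2.8e-04), FGF8 -0.26 (limma adjusted p = 3.7e-04) and IGF2 -0.46 (limma adjusted p = 8.1e-12).

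The fusion's own partner genes were also read. PAX3 had 1648 ± 97.0 normalized counts in DMSO and 1727 ± 58.2 with drug (SD, 3 libraries each), with overlapping groups and a log2 fold change of 0.07 (limma adjusted p = 0.616). FOXO1 had 2336, 1849 and 1887 normalized counts in DMSO and 1745.5, 1673 and 1676 with drug, with groups apart and a log2 fold change of -0.25 (limma adjusted p = 0.128), or -0.14 (limma adjusted p = 0.0471) without DMSO replicate 1, its highest library. Without DMSO replicate 2 the log2 fold change of FOXO1 was -0.31 (limma adjusted p = 0.0485). Reads of the fusion transcript are counted to these same genes and were not separated from those of the intact alleles. ETS1, KDM3A, MEST and LOXL2 had log2 fold changes of 0.0054, -0.03, -0.03 and 0.04, and IL4R and PODXL had -0.19 and -0.11. None of them was called with all libraries before trends on GC content and length were removed. These 9 genes, PAX3, FOXO1, ETS1, KDM3A, FGF8, IL4R, MEST, PODXL and LOXL2, were taken from the study, which names LOXL2 in its supplement only. Of them, 3 had an unadjusted limma p under 0.05 (18.7% of all genes tested) and edgeR and DESeq2 called none. Leaving out DMSO replicate 1, limma called 4 of them, FOXO1, FGF8, IL4R and PODXL, all lower, beside 8.46% of all genes tested. PAX3 then had 0.11, ETS1 0.03, KDM3A 0.09, MEST 0.04 and LOXL2 -0.03, the last 3 with the other sign. With all libraries and trends on GC content and length removed, limma likewise called FOXO1, FGF8, IL4R and PODXL lower, beside 1434 of 13705 genes. Their log2 fold changes were -0.26 (limma adjusted p = 0.0090), -0.36 (limma adjusted p = 0.0037), -0.27 (limma adjusted p = 3.3e-04) and -0.15 (limma adjusted p = 0.0175), in that order.

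Genes that work with each target were taken by function. The counts called in these lists stand beside 3.41% of all genes tested for limma, 3.34% for edgeR and 4.47% for DESeq2. Around ALK, 7 of 10 ligands and partners were tested, with a median log2 fold change of 0.25. None was called by limma or edgeR, 3 had an unadjusted limma p under 0.05 (18.7% of all genes tested), and DESeq2 called 1 (4.47% of all genes tested). IRS1, an insulin receptor substrate and the most abundant, had 3006 ± 309 normalized counts in DMSO and 3649.9 ± 190 with drug (SD, 3 libraries each; log2 fold change 0.28, limma adjusted p = 0.0586), opposite in sign to ALK itself. The ligands ALKAL1 and PTN were at 0 and at a mean of 3.57 normalized counts in DMSO, while the growth factor MDK had 2005.0 and the related receptor LTK 316. MDK and LTK had log2 fold changes of 0.25 and 0.24, which were 0.09 and 0.07 without DMSO replicate 1. The median of the list was then 0.13, and limma called IRS1 higher (0.20, limma adjusted p = 0.00108) and SHC1 lower, beside 4.62% and 8.46% of all genes tested.

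In a list of AP-2 factors and partners, which also holds TFAP4, an AP-4 factor, 6 of 8 were tested. Their median was -0.01, or -0.06 without DMSO replicate 1, and limma called 1, higher, as it called 1.26% of all genes tested. That gene, CITED2, a transcriptional coactivator, rose from 725 ± 29.5 to 982 ± 65.7 normalized counts (SD, 3 libraries each), a log2 fold change of 0.44 (limma adjusted p = 0.00966), and was the 1 gene of the list called without DMSO replicate 1 (0.42), where 4.62% of all genes tested were called higher. In this list 2 had an unadjusted limma p under 0.05, beside 18.7% of all genes tested. TFAP2E and TFAP2A had log2 fold changes of 0.17 and -0.15, TFAP2C and TFAP2D were at 0 in all libraries, and KCTD15, the most abundant, stood at -0.08, and without DMSO replicate 1 TFAP2E and KCTD15 had 0.11 and -0.14. Around OLIG2, 4 of 11 OLIG, neural bHLH and glial transcription factors, among them NKX2-2 and SOX10, which are not bHLH factors, were tested. All lay below 0, as did 52.0% of all genes tested, with a median of -0.02. None had an unadjusted limma p under 0.05 (18.7% of all genes tested). None was called by limma, edgeR or DESeq2, beside 3.41%, 3.34% and 4.47% of all genes tested. The E proteins TCF3, TCF4 and TCF12, with which OLIG2 pairs, were at -0.02, -8e-04 and -0.01. Leaving out DMSO replicate 1 put them at -0.10, 0.08 and 0.09, so that 2 of the 4 then lay above 0. OLIG3, NEUROG1 and NEUROD1 were at 0 in all libraries.

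In the list of cadherins and catenins, 10 of 11 were tested with a median of -0.04 (-0.06 without DMSO replicate 1), and none was called by limma, edgeR or DESeq2, with 1 at an unadjusted limma p under 0.05 (18.7% of all genes tested). CDH15, the muscle cadherin and the most abundant, had a log2 fold change of -0.03, CTNNB1 -0.19, CDH2 -0.16 and CDH13 0.05. CDH15 (-0.14) and CTNNB1 (-0.13) were called lower by limma without DMSO replicate 1, beside 8.46% of all genes tested, and CDH2 and CDH13 then had -0.10 and 0.10. For nitric oxide signalling 8 of 11 were tested with a median of -0.07 (-0.05 without DMSO replicate 1). None had an unadjusted limma p under 0.05 (18.7% of all genes tested), and edgeR and DESeq2 called none either (3.34% and 4.47% of all genes tested). NOS1 was the one synthase well expressed, since NOS2 and NOS3 had DMSO means of 0 and 4.56 normalized counts. GUCY1B1, a subunit of the nitric oxide receptor, had a log2 fold change of -0.26. Of the 8, limma called 1 without DMSO replicate 1, lower, beside 8.46% of all genes tested.

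For the endocannabinoid system 8 of 10 were tested with a median of 0.06, 1 of them at an unadjusted limma p under 0.05 (18.7% of all genes tested) and none called by limma, edgeR or DESeq2. MGLL, which breaks down a ligand of CNR1, had a log2 fold change of -0.19 (-0.21 and called lower without DMSO replicate 1, beside 8.46% of all genes tested), NAPEPLD -0.20 (-0.07 without that library) and DAGLB, which makes that ligand, 0.16, and the second receptor CNR2 was at 0 in every library. Of the peroxisome and lysine or sarcosine breakdown list around PIPOX, 9 of 10 were tested with a median of -0.03. None had an unadjusted limma p under 0.05 (18.7% of all genes tested), and none was called by edgeR or DESeq2 (3.34% and 4.47% of all genes tested). AASS, SARDH and PHYKPL had -0.11, -0.11 and 0.14, and without DMSO replicate 1 AASS and SARDH had -0.04 and -0.18, the median was -0.0061 and none of the list was called.

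Of NELL1 relatives and receptors 6 of 7 were tested with a median of 0.04. None was called by limma, edgeR or DESeq2, and 2 had an unadjusted limma p under 0.05 (18.7% of all genes tested). ROBO2, a guidance receptor of the same family as ROBO3, had 388 ± 31.7 normalized counts in DMSO and 304 ± 20.6 with drug (SD, 3 libraries each; log2 fold change -0.35, limma adjusted p = 0.0666), ROBO1, the most abundant, -0.06, and THBS1 0.13. When DMSO replicate 1 was left out, limma called ROBO2 lower (-0.29) and THBS1 higher (0.15), beside 8.46% and 4.62% of all genes tested, and ROBO1 had 0.0080. NELL2, the closest relative, had a DMSO mean of 64.1 normalized counts. In the list of the RASSF family and Hippo kinases 13 of 16 were tested with a median of -0.10. None was called by limma or edgeR, 4 had an unadjusted limma p under 0.05 (18.7% of all genes tested) and DESeq2 called 1 (4.47% of all genes tested). MOB1A, a kinase activator and the most abundant, had a log2 fold change of -0.26 (limma adjusted p = 0.0505), STK3 -0.24 and RASSF5 -0.23. MOB1A (-0.18) and RASSF3 (-0.23) were called lower without DMSO replicate 1, beside 8.46% of all genes tested, and STK3 then had -0.13.

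**Figure D5:**
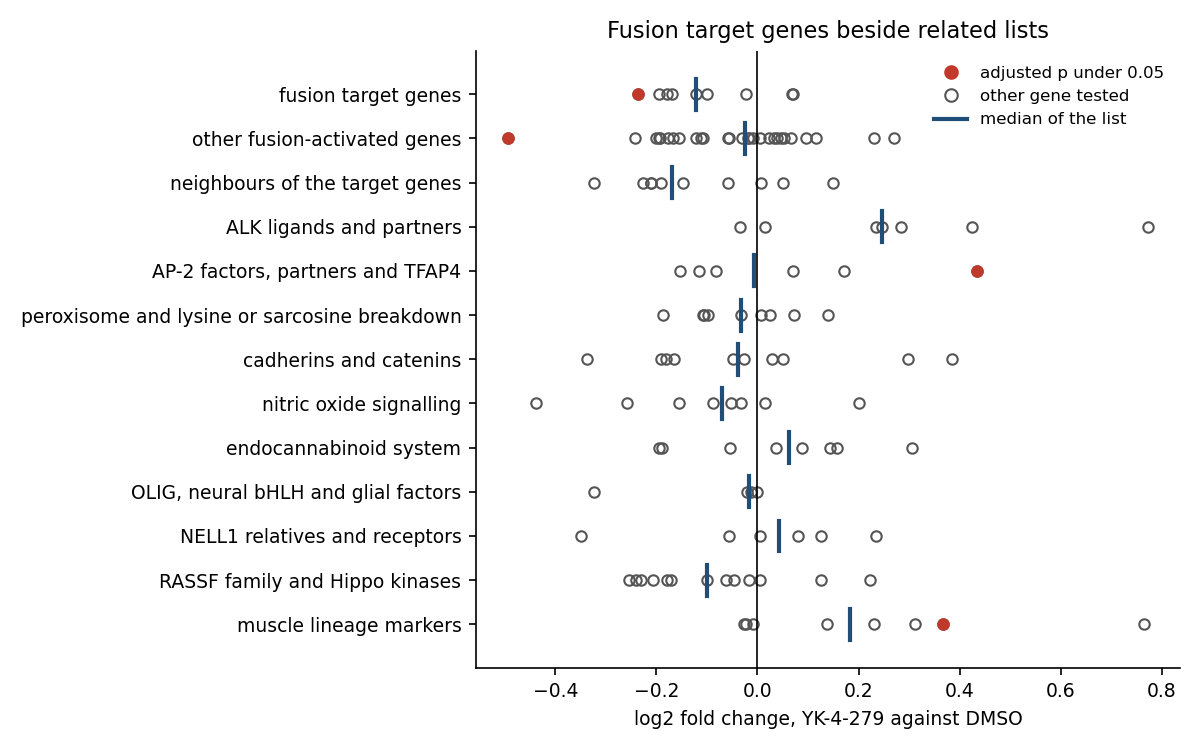
Log2 fold change, YK-4-279 against DMSO, of each gene tested in the fusion target genes and in the related lists, with a blue bar at the median of each list and red points for a limma adjusted p under 0.05. The red points are NELL1 among the targets, IGF2 among the other fusion-activated genes, CITED2 in the AP-2 list and ACTC1 among the muscle lineage markers.

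Of the 8 muscle lineage markers tested, 5 lay above 0 and 3 below, with a median log2 fold change of 0.18. In 5 all drug-treated libraries lay above all DMSO libraries, an arrangement of 10.9% of all genes tested, and 5 had an unadjusted limma p under 0.05, beside 18.7% of all genes tested. Limma called 1, edgeR 1 and DESeq2 2, where they called 3.41%, 3.34% and 4.47% of all genes tested. ACTC1, cardiac actin, rose (log2 fold change 0.37, limma adjusted p = 0.00528), while TNNT1 and MYOG had 0.31 (limma adjusted p = 0.0733) and 0.23 (limma adjusted p = 0.224). With DMSO replicate 1 left out the median was 0.08, MYOG had 0.08 and TNNT1 0.18, and limma called ACTC1 (0.35), MYMK and TNNT1 higher and CDH15 lower, beside 4.62% of all genes tested called higher and 8.46% lower. The 10 markers summed to 99874, 116525 and 111626 normalized counts for DMSO replicates 1 to 3 and to 120867, 122406 and 117051 with drug. The lowest sum was that of DMSO replicate 1. The summed immune markers were between 5.0 and 16.0 normalized counts in DMSO and between 21.0 and 33.7 with drug, endothelial markers between 87.7 and 117 over all libraries, epithelial markers between 56.8 and 105 and neural markers between 27.7 and 78.5, and no marker of these lists was called by limma, edgeR or DESeq2, with the 1 immune marker tested and 1 of 2 epithelial markers tested at an unadjusted limma p under 0.05, beside 18.7% of all genes tested. Whether the differences of the fusion targets have a part in common with those of the muscle markers was not tested.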

How the data were processed

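Rh30 cells were treated and sequenced as described above. The authors trimmed reads with BBDuk, aligned them to hg38 with STAR and used DESeq2 for differential expression. The matrix is labelled as normalized counts, and the submitters' processing notes name STAR 2.7.9a and DESeq2 1.44.0. The deposited unit is signal, here counts scaled by a size factor, and the gene annotation behind them was not given in the sources used here. Of 35269 rows, 1 without a gene name was left out, holding between 0 and 6 reads per library, and 0 sample columns were unused. Division by the smallest value above 0 gave whole reads for 100% of values (tolerance 0.001).

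Differences were tested two-sided with limma 3.58.1 in R 4.3.3 (eBayes with trend) on log2(normalized count + 1), with Benjamini-Hochberg adjustment over 13930 genes. The added 1 understates fold changes of genes with few counts. The code was tested on simulated data. Alternatives were pseudocounts of 0.5 and 10, no filter or a mean of at least 100, TMM, quantile and total read scaling, eBayes without trend, a replicate block, edgeR 4.0.16 and DESeq2 1.42.0 on recovered reads, removal of trends on GC content and length within libraries (98.4% of genes had both), and each library left out. Scaling by total reads was chosen after seeing the data.

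The members and lists, written by hand, were chosen with earlier results of these data known. Named genes were the targets, the genes taken from the study, the most abundant and up to 3 with the largest change (mean of at least 100) of each list, neighbours, and the 2 nearest profiles per target. Other genes named, such as those at or near 0 and NELL2, were chosen after their values were seen, and some genes that the rule picks are not reported here. Positions and exon lengths are from GENCODE v44 on hg38, 1-based. No 100-base stretch of a target's longest transcript occurred in another gene's transcripts.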

Additional observations from a re-analysis of the deposited data

How the results depend on the processing

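All alternatives but scaling by total reads were planned. There are 3 libraries per group, and CNR1 and CDH3 have few reads. The cause was not tested for the changes below, apart from fewer genes or samples where the alternative itself brings these.

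Of all genes tested 475 were called, 62.9% of them lower. The number was 277 with quantile normalization (52.3% lower), 33 with eBayes without trend (9.09% lower), 1913 after GC content and length correction (74.96% lower) and, leaving out 1 library, from 19 to 1823. It was 1823 without DMSO replicate 1, 242 without DMSO replicate 3, and 19, 23 and 46 without YK-4-279 replicate 1, 2 and 3, of which 21.1%, 30.4% and 39.1% were lower. Scaling by total reads gave 375, with 37.3% lower.

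Of the 9 targets 1 was called, NELL1. The number was 0 without a filter, with TMM, total read or quantile scaling, with eBayes without trend and with edgeR, 3 after GC content and length correction (ALK, NOS1 and NELL1), and from 0 to 3 leaving out 1 library. It was 3 without DMSO replicate 1 and 0 without each of the other 5 libraries. The adjusted p of NELL1 ranged from 7.1e-04 to 0.240. The median log2 fold change of the targets, -0.12, was -0.0566 with quantile normalization, -0.0688 with total read scaling, -0.18 after GC content and length correction, and from -0.1432 to -0.0742 leaving out 1 library, the latter without YK-4-279 replicate 3.

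The replicate numbers did not pair the samples (correlations of deviations -0.098, -0.027 and -0.027). With a replicate block 180 genes were called (56.1% lower) and 0 targets.

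Signs turned, in genes that were not called, for RASSF4 (0.0302), KDM3A (0.0246) and MEST (0.0220) with total read scaling, KDM3A (0.0181) with quantile normalization and LOXL2 (-0.0368) after GC content and length correction. Leaving out 1 library, KDM3A went from -0.0899 to 0.0881, MEST from -0.0658 to 0.0363, LOXL2 from -0.0275 to 0.0721 and ETS1 from -0.0313 to 0.0308.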
